A study of Homo sapiens with 12 samples.

Results

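Hypoxia-inducible factors are transcription factors made of an oxygen-labile alpha subunit and the stable partner ARNT. In air, prolyl hydroxylases mark the alpha subunit for destruction through the VHL ubiquitin ligase, and when oxygen falls the factor accumulates and switches on genes of vessel growth, glucose use, mitochondrial turnover and matrix building. In solid tumours of the bile ducts and elsewhere these genes are widely used as a readout of hypoxia, although many of them also answer to other signals. The description here covers 9 such targets, chosen by name: VEGFA, ADM and ANGPTL4, which encode secreted factors, EGLN3, an oxygen-sensing prolyl hydroxylase, PDK1 and BNIP3, which act on mitochondria, P4HA1, a collagen prolyl hydroxylase, and NDRG1 and ANKRD37. Of the 9 genes, 5 were found among the 5308 genes listed in at least 1 of the 3 deposited tables. These were VEGFA, ADM, ANGPTL4, BNIP3 and P4HA1, while NDRG1, EGLN3, PDK1 and ANKRD37 were in none of the tables.

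RNA was sequenced from KKU-213A, a human cholangiocarcinoma line of mixed papillary and non-papillary type, in 12 libraries, 3 in each of 4 groups. All groups grew in low-glucose DMEM with serum under air and CO2, and the labels name no lowered oxygen. Control cells had this medium alone, lactic acidosis cells (LLA in the labels) had L-lactate and HEPES, both at 25 mM, at pH 6.7, reached in steps, lactosis cells 25 mM L-lactate at pH 7.4, and acidosis cells 25 mM HEPES at pH 6.5, each treated group for at least 5 passages. HEPES is named only for the acid media and passages only for treated cells, so acid and buffer, or treatment and time in the medium, cannot be told apart. Each table sets 1 treated group against the same 3 control libraries and holds only genes that the authors' test listed as changed, so absence from a table does not show that a gene kept its level. The labels do not say whether the 3 libraries of a group were separate cultures, so the tests measure a spread that may be technical.

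Values are length-scaled expression values per library, and a fold change of the authors is given as treated over control on the log2 scale. Read depth is not given. Control replicate 1 was deposited on a lower scale than the other libraries: a fit to the authors' group means gave it a weight of 1.00, against 0.709 to 0.888 for the other libraries. It held the lowest control value for 81.8% of all listed genes as deposited and for 41.5% after rescaling. Of the 11 bile duct markers, 5 were listed in lactic acidosis, 2 higher (SOX9, CDH1) and 3 lower (KRT19, MUC1, SPP1), 2 in lactosis, both lower (KRT19, MUC1), and 1 in acidosis, lower (CDH1). KRT19 stood at 2596 to 4419 in the libraries of the tables that list it, while MUC1 and SPP1 were low, at 0.33 to 4.97. None of the hepatocyte or fibroblast markers searched was in any table; of the endothelial list PECAM1 was in the acidosis table and of the immune list CD68 in the lactic acidosis table, both higher than in control. Lactic acidosis replicate 2 and lactosis replicate 2 stood apart in muscle genes, with summed values of the listed muscle markers of 35.6 and 48.1, against at most 3.91 and 0.530 in the other libraries of their groups. In the control libraries the same sums were 7.51 to 14.0 for the 6 markers listed in lactic acidosis and 0.640 to 1.48 for the 5 listed in lactosis. The lactic acidosis sums include TNNT3, which was listed lower, unlike the other 5 muscle markers in that table.

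The core of the DNA element bound by hypoxia-inducible factors reads ACGTG or GCGTG, and the promoters of the listed targets other than VEGFA are shown because they carry it. The promoters searched held no entry for VEGFA, so its promoter was not examined. The sequences are the 250 bases before the RefSeq gene start in GRCh38.p14, 5′ to 3′ on the gene's strand, with capitals for the core on either strand.
BNIP3 promoter, chr10:131981924-131982173, minus strand: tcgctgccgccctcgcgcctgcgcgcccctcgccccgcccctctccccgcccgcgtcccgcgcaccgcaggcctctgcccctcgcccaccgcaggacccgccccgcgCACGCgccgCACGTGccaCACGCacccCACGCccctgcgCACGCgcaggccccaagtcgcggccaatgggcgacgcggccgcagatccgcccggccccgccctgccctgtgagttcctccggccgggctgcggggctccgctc
ADM promoter, chr11:10304823-10305072, plus strand: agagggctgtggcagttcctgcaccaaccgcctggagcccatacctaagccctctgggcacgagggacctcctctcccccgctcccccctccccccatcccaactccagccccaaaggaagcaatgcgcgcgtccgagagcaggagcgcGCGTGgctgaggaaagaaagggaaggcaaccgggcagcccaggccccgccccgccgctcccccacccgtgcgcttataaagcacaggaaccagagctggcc
P4HA1 promoter, chr10:73096867-73097116, minus strand: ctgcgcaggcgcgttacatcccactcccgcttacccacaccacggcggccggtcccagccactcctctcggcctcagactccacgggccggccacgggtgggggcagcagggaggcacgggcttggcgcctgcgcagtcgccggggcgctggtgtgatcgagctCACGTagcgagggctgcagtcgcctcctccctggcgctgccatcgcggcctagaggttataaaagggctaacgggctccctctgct
ANGPTL4 promoter, chr19:8363905-8364154, plus strand: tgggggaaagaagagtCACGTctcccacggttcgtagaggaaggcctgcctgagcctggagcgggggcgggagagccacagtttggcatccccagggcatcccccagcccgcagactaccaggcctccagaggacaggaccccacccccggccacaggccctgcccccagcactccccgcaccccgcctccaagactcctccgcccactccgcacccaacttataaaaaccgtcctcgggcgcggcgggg

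BNIP3 held 6 core matches in this window, from -143 to -100 relative to the start, with both ACGTG matches inside a single CACGTG palindrome, the E-box of other factors. ADM, P4HA1 and ANGPTL4 held 1 match each. The gene spans given below are from GENCODE and begin upstream of these RefSeq starts, so each window shown overlaps the span of its gene. Of the 7 members with a RefSeq promoter, 6 had ACGTG or GCGTG in at least 1 promoter, and so had 43.2% of all 35116 promoters searched over 250 bases. The members are counted as genes and the 43.2% as single promoters. PDK1 had 2 promoters, of which 1 had no match. The BNIP3 window was 81.6% G and C, and a match is a stretch of letters, not a measured site. Members listed higher (BNIP3, ANGPTL4) and lower (ADM, P4HA1) both had a match.

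Among the secreted factors, VEGFA, the main growth factor of vessel endothelium, was lower in lactosis and in acidosis than in control. The gene lies on chromosome 6 from 43770184 to 43786487 in GRCh38. It stood at 165.03, 183.77 and 128.84 in the control libraries, at 61.62, 58.02 and 65.01 in lactosis and at 82.56, 76.22 and 73.22 in acidosis. All treated libraries lay below the lowest control, and the 3 groups did not overlap. The means were 159 ± 27.9 (SD, n = 3) in control, 77.3 ± 4.77 (SD, n = 3) in acidosis and 61.6 ± 3.50 (SD, n = 3) in lactosis. VEGFA was not in the lactic acidosis table.

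The authors' deposited tables put VEGFA at a log2 fold of -1.47 in lactosis and -1.14 in acidosis, with mean size-factor counts of 4529 and 4974 in control, 1633 in lactosis and 2257 in acidosis. On log2(value + 1), limma gave a difference of -1.34 in lactosis (95% interval -1.68 to -1.01, adjusted p = 2.49e-04). In acidosis it gave -1.02 (95% interval -1.36 to -0.68, adjusted p = 3.61e-04). Of all listed genes, 78.5% in lactosis and 62.2% in acidosis passed limma in either direction, since the lists were made from the same libraries, so a pass describes the spread and adds no evidence. Groups lay apart with treated below for 31.9% of listed genes in lactosis and 25.3% in acidosis. A short antisense gene overlaps an exon of VEGFA and shares 0.751% of its 75-base windows, and without strand their reads could not be told apart; use of strand in counting is not given in the sources used here.

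The order of VEGFA levels was control, acidosis, lactosis. The step from control to acidosis is how the gene came to be listed, so it adds no evidence. Lactosis against acidosis uses no control library and gave a log2 difference of -0.32 (95% interval -0.48 to -0.17, limma adjusted p = 0.00438 over the 1173 genes listed in both tables). Of those genes 28.5% passed in either direction, 20.7% higher in lactosis and 7.76% lower. For 13.4% of them the lactosis libraries all lay below the acidosis libraries, as for VEGFA. Rescaled to the authors' group means, the VEGFA difference was -0.39, and the genes that passed went from 243 higher and 91 lower to 155 higher and 155 lower. The media of these groups differed in lactate, in HEPES and in pH, which cannot be told apart.

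Genes like VEGFA were sought among those listed in both lactosis and acidosis, leaving out names of clones and of long noncoding or antisense transcripts. Over the 9 libraries of control, lactosis and acidosis, the 3 with the most similar pattern were RNF19B, a ubiquitin ligase gene (Pearson r = 0.994), the transcription factor gene KLF4 (r = 0.992) and STARD4, a sterol transfer gene (r = 0.990). These r values describe 9 libraries in 3 groups and rest on the differences between groups. KLF4 stood at 70.69, 85.45 and 60.75 in control, at 31.46, 28.27 and 32.92 in lactosis and at 37.19, 33.88 and 32.52 in acidosis. As deposited, control replicate 2 held the highest and control replicate 3 the lowest control value of all 4 genes. Rescaled to the authors' group means, the VEGFA controls stood at 165, 138 and 97.7, so control replicate 1 was then its highest.

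ADM encodes adrenomedullin, a peptide that widens vessels, and was lower in lactic acidosis, the only table that listed it. It lies on chromosome 11 from 10304680 to 10307397. The control libraries stood at 89.99, 126.04 and 177.75 and the lactic acidosis libraries at 62.23, 56.33 and 64.2. Every treated library was below the lowest control, although the controls spread widely, with a mean of 131 ± 44.1 (SD, n = 3) against 60.9 ± 4.10 (SD, n = 3). The lowest control was replicate 1, the control on the low scale. Rescaled to the authors' group means, the ADM controls stood at 90.0, 94.4 and 135. The authors' deposited table gives ADM a log2 fold of -1.19, and limma gave a difference of -1.04 (95% interval -1.53 to -0.55, adjusted p = 0.00317). The difference was -0.80 without control replicate 3 and -1.29 without control replicate 1. Of all listed genes in lactic acidosis, 86.3% passed limma, and for 32.0% the treated group lay wholly below control.

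ANGPTL4 encodes a secreted inhibitor of lipoprotein lipase that answers to fatty acids through the PPAR receptors as well as to hypoxia, and it was near the limit of detection. The gene is on chromosome 19 from 8363289 to 8374373. It stood at 0.1 in control replicate 1 and is listed at 0 in control replicates 2 and 3, against 0.44, 0.83 and 0.3 in lactic acidosis. All 3 treated libraries were above the highest control, as were those of 58.2% of all listed genes there, but the values rest on very few reads. The authors' mean counts were 0.285 in control and 8.05 in lactic acidosis, which over 3 libraries is about 1 read against 24, a ratio of 24.0 with an exact 95% counting interval from 3.91 to 987. That interval treats reads as independent and leaves out the spread between libraries. ANGPTL4 was listed from these same libraries, so the interval adds no evidence of a difference. The authors' deposited table shrinks the fold from 27.3 to 11.5.

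On log2(value + 1) the difference of ANGPTL4 was 0.55 (95% interval 0.20 to 0.90, limma adjusted p = 0.0112), and with pseudocounts of 0.1 and 5 it was 2.22 and 0.13. Its highest value was in lactic acidosis replicate 2, the library with the high muscle markers. Without that library the difference was 0.41 (limma adjusted p = 0.0379), and both other lactic acidosis libraries stayed above every control. In lactic acidosis, 58.9% of all listed genes were higher and 86.3% passed limma. Of 8 other PPAR targets on the list, 4 were listed there, all higher, and all 4 passed limma. They were CPT1A, the carnitine palmitoyltransferase of the mitochondrial outer membrane, at a log2 fold of 0.73 by the authors' deposited table, the lipid droplet coat gene PLIN2 at 0.72, the acyl-CoA dehydrogenase gene ACADVL at 0.44 and SLC25A20, the carnitine carrier, at 0.89. In lactosis CPT1A and SLC25A20 were listed, at 0.48 and 0.98 by the authors' deposited table, and CPT1A stayed past limma in 9 of 12 alternatives. Of all listed genes in lactosis, 40.7% were lower and 78.5% passed limma. In acidosis none of the 8 PPAR targets was listed. The part of the PPAR receptors in the ANGPTL4 values was not tested. For lactic acidosis the median over all listed genes was 0.37, for lactosis 0.35 and for acidosis 0.32.

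**Figure D1:**
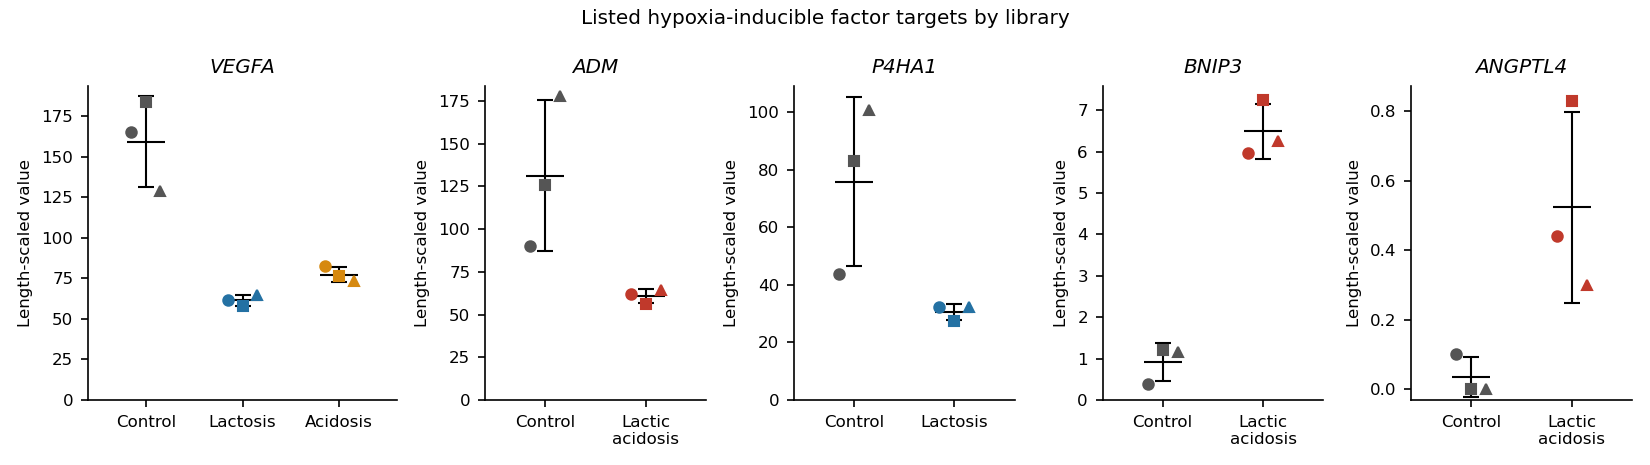
Length-scaled value of each listed target in every library of the groups whose tables list it (circle, square and triangle for replicates 1, 2 and 3; bars, mean ± SD, n = 3). VEGFA, ADM and P4HA1 lie below every control library in the treated groups shown, and BNIP3 and ANGPTL4 above.

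BNIP3, a receptor on the mitochondrial outer membrane that recruits the autophagy machinery, was higher in lactic acidosis, the only table that listed it. The gene spans 131966455 to 131982013 on chromosome 10. It stood at 0.39, 1.21 and 1.17 in control and at 5.97, 7.24 and 6.26 in lactic acidosis. The groups lay far apart, with means of 0.923 ± 0.462 (SD, n = 3) and 6.49 ± 0.666 (SD, n = 3). The authors' deposited table puts BNIP3 at 2.71 on the log2 scale, with mean counts of 13.1 and 88.7. Limma on log2(value + 1), a scale that understates changes of low genes, gave 1.99 (95% interval 1.54 to 2.44, adjusted p = 1.08e-04). Without lactic acidosis replicate 2, the library with the high muscle markers, the difference was 1.92. Of the BNIP3 windows of 75 bases, 5.63% also occur in the pseudogene BNIP3P1.

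P4HA1, the catalytic subunit of the prolyl hydroxylase that stabilizes the collagen helix, was lower in lactosis, the only table that listed it. It lies on chromosome 10 from 73007217 to 73096974. Control libraries stood at 43.64, 83.2 and 100.88 and lactosis libraries at 32.18, 27.31 and 32.41. All lactosis libraries were below the lowest control, replicate 1, which was the control on the low scale; rescaled to the authors' group means, the controls stood at 43.6, 62.3 and 76.5. P4HA1 is at -1.30 on the log2 scale of the authors' deposited table, with a probability of equal expression of 0.0134, the highest of the listed members. Limma gave -1.20 (95% interval -1.79 to -0.62, adjusted p = 0.00466), which went to -1.55 without control replicate 1 and to -0.96 without control replicate 3.

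So 3 members were listed in lactic acidosis, 1 lower and 2 higher, 2 in lactosis, both lower, and 1 in acidosis, which was lower. Among all listed genes, 41.1% were lower and 58.9% higher in lactic acidosis, and 40.7% were lower in lactosis and 38.9% in acidosis. No member was listed in all 3 tables, and VEGFA was the only member listed in more than 1.

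The other genes of the pathway were read from lists of known targets and regulators. Of 56 other targets, 23 were listed at least once, 17 lower wherever listed and 6 higher wherever listed. In lactic acidosis 6 were listed higher and 11 lower, of which 6 and 7 passed limma. In lactosis 4 were higher and 12 lower, with 3 and 8 past limma, and in acidosis 1 was higher and 7 lower, with 1 and 6. In the same order of groups, 41.1%, 40.7% and 38.9% of all listed genes were listed lower. Of all listed genes 86.3%, 78.5% and 62.2% passed in these comparisons, so nothing about the targets follows from how many passed. The listed targets had a median log2 fold of -0.47 in lactic acidosis and again in lactosis and of -0.67 in acidosis, while the medians of all listed genes were above 0. The 3 comparisons share their control libraries, so the counts are given side by side and not as repeats of each other. Control replicate 1 held the lowest control value of 20 of the 23 (87.0%) as deposited, the scale of these tests, and of 13 (56.5%) after rescaling, against 81.8% and 41.5% of all listed genes.

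Of the 23, 5 were listed in all 3 tables, as were 1042 of all 5308 listed genes. Of the 5 targets, 4 were lower in each: ALDOC, an aldolase, the histone demethylase genes KDM4B and KDM4C, and DDIT4. The share of the 1042 genes that were lower in each was not counted, so nothing about the targets follows from these 4. The authors' deposited tables of lactic acidosis, lactosis and acidosis put ALDOC at -1.39, -1.22 and -1.01. ALDOC stood at 27.75, 58.44 and 53.01 in control and between 17 and 24.42 in all treated libraries. The glycolytic genes ALDOA and GAPDH were listed lower in lactic acidosis, at -0.38 and -0.47, and in lactosis, at -0.34 and -0.31, by the authors' deposited tables. Of these 4 differences, that of GAPDH in lactic acidosis passed limma as deposited (adjusted p = 0.0293) and in 8 of 12 alternatives, and all 4 passed after rescaling (adjusted p from 0.00768 to 0.0326). SLC16A3, which exports lactate, was listed higher, by the authors' deposited tables at 0.45 in lactic acidosis, where it passed limma, and at 0.27 in lactosis, where it did not as deposited (adjusted p = 0.0641) but did after rescaling (adjusted p = 0.0329). PGM1, a phosphoglucomutase of glycogen metabolism, was listed lower in lactosis at -0.25 in the authors' deposited table and did not pass limma as deposited (adjusted p = 0.124) but did after rescaling (adjusted p = 0.0108).

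Targets listed higher included PLAUR and LOXL2. PLAUR, the urokinase receptor, is at 1.80, 1.65 and 0.91 on the log2 scale of the authors' deposited tables of lactic acidosis, lactosis and acidosis. By the authors' deposited tables LOXL2, a lysyl oxidase, was at 1.77 in lactic acidosis and 0.83 in lactosis, whereas its relative LOX was listed lower, at -0.90 in lactosis and -0.81 in acidosis, and passed limma in both. DDIT4, an inhibitor of mTORC1, went the other way: 1503.39, 1605.77 and 1577.86 in control, 770.77, 752.75 and 772.98 in lactic acidosis, 771.86, 624.11 and 651.67 in lactosis and 1170.64, 1017.45 and 1022.64 in acidosis. All its treated libraries lay below control, and it passed limma in each comparison (adjusted p = 1.04e-04, 2.32e-04 and 0.0130). In acidosis DDIT4 stayed past limma in 9 of 12 alternatives. CA9, a carbonic anhydrase often used as a hypoxia marker, was listed in lactosis alone, at 2.06, 7.72 and 6.93 in control and 1.04, 1 and 0.96 in lactosis. The authors' deposited table puts CA9 at -2.40, and control replicate 1 was near the lactosis libraries.

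**Figure D2:**
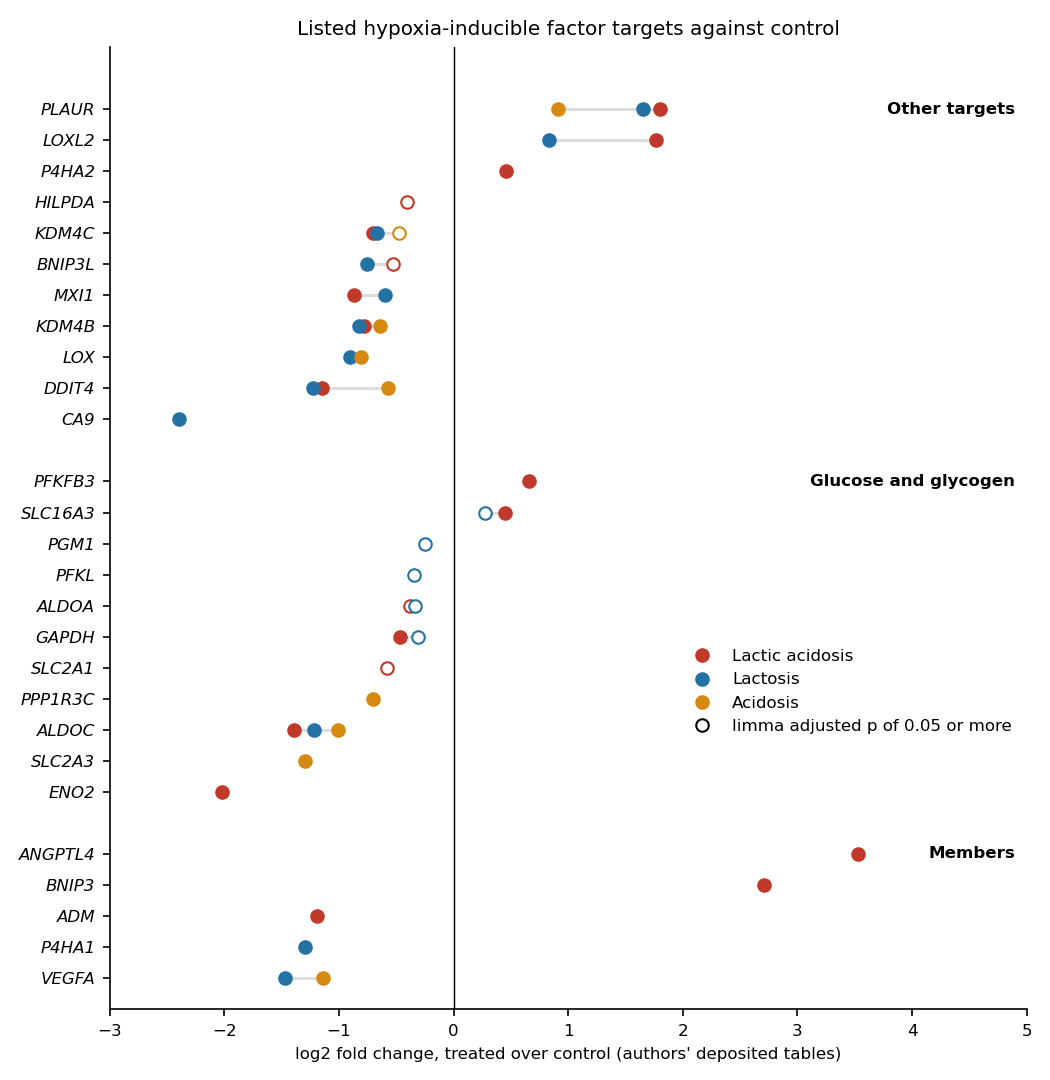
Log2 fold change of treated over control from the authors' deposited tables for the listed members and other targets (1 point per table; open points had a limma adjusted p of 0.05 or more). BNIP3 and ANGPTL4 in lactic acidosis lie farthest to the right and CA9 in lactosis farthest to the left, and 17 other targets lie left of 0 wherever listed.

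Few genes of the oxygen-sensing machinery itself were listed. Of 18 subunits and regulators, 2 were listed in lactic acidosis, 1 in lactosis and none in acidosis. These were SIAH1, a ubiquitin ligase that degrades prolyl hydroxylases, at -0.57 in lactic acidosis and -0.71 in lactosis, and CITED2, a factor that competes with the alpha subunit for its coactivators, at -0.68 in lactic acidosis, all in the authors' deposited tables and all past limma. SIAH1 in lactic acidosis stayed past limma in 8 of 11 alternatives. HIF1A, EPAS1, ARNT, VHL, EGLN1 and EGLN2 were in none of the tables.

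Of 18 other angiogenic ligands and receptors, 3 were listed in lactic acidosis and 3 in lactosis, all higher and all past limma, and none in acidosis. In lactic acidosis, 58.9% of the whole table was listed higher and 86.3% passed limma. In lactosis, 40.7% was listed lower and 78.5% passed limma. NRP1 stayed past it in 9 of 12 alternatives in lactic acidosis and 10 of 12 in lactosis. NRP2 did so in 12 of 12 in lactic acidosis and 9 of 12 in lactosis. NRP1 and NRP2, coreceptors of VEGFA, were at 0.57 and 0.89 in lactic acidosis and 0.57 and 0.62 in lactosis on the log2 scale of the authors' deposited tables. PDGFB, a growth factor for the cells around vessels, stood at 9.52, 12.95 and 14.34 in control and 27.1, 31.86 and 30.44 in lactic acidosis. EDN1, which encodes the vessel-narrowing peptide endothelin, stood at 0.57, 1.23 and 0.84 in control and 1.64, 2.1 and 3.26 in lactosis. In lactosis VEGFA was thus listed lower beside higher NRP1, NRP2 and EDN1.

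Close relatives of the members were listed in both directions. BNIP3L, a mitophagy receptor related to BNIP3, stood at 38.53, 57.57 and 64.18 in control, 38.5, 42.85 and 36.68 in lactic acidosis and 33.15, 29.63 and 32.74 in lactosis. It was listed lower in lactic acidosis, where BNIP3 was listed higher, but overlapped control there (limma log2 difference -0.40, adjusted p = 0.0680). That overlap was with control replicate 1, the control on the low scale: the other controls lay above every lactic acidosis library, and BNIP3L passed limma after rescaling (-0.48, adjusted p = 0.00185) and without control replicate 1 (-0.62, adjusted p = 3.43e-05). In lactosis BNIP3L was below every control (limma log2 difference -0.70, adjusted p = 0.0103), and it was higher in lactic acidosis than in lactosis (0.30, adjusted p = 0.0210), a comparison in which 25.9% of the 2344 genes listed in both tables passed. Per length, BNIP3L stood far above BNIP3 in every library of control and lactic acidosis. Of 10 other mitophagy genes, BNIP3L included, 4 were listed in lactosis, all lower and all past limma, which 78.5% of all listed genes passed. CALCOCO2, an autophagy adaptor, was at -1.01 and BCL2L13 at -0.54 in the authors' deposited table, and BCL2L13 overlapped control (8.44 against 8.37) and stayed past limma in 6 of 12 alternatives. In lactic acidosis 1 was listed higher, the kinase gene PINK1 at 0.30, and 3 lower, of which CALCOCO2 at -0.70 passed limma, as PINK1 did, with both values from the authors' deposited table.

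P4HA2, which makes the same kind of collagen hydroxylase as P4HA1, was listed higher in lactic acidosis, at 27.44, 27.46 and 27.67 against 18.87, 19.08 and 17.9 in control (limma log2 difference 0.54, adjusted p = 0.00471). ADM2, a relative of ADM in the calcitonin family, was lower in lactosis and acidosis. It stood at 3.96, 3.36 and 1.04 in control, 0.11, 0.14 and 0.08 in lactosis and 0.12, 0.12 and 0.31 in acidosis. The authors' deposited tables put ADM2 at -4.65 and -3.95, with control replicate 3 well below the other controls. ADM5, another relative, was higher in lactosis, at 13.92, 12.61 and 11.79 against 5.43, 8.58 and 8.62.

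PDK2, a pyruvate dehydrogenase kinase like PDK1, was lower in both lactate media. It stood at 15.77, 15.42 and 14.22 in control, 7.12, 6.39 and 6.21 in lactic acidosis and 10.1, 8.64 and 7.54 in lactosis. The groups did not overlap, and treated lay wholly below control for 32.0% of listed genes in lactic acidosis and 31.9% in lactosis. PDK2 was lower in lactic acidosis than in lactosis (limma log2 difference -0.36, adjusted p = 0.0405). That difference stayed past the threshold in 7 of 12 alternatives, and 25.9% of the 2344 genes compared passed. PDP1, the phosphatase that reverses these kinases, was listed lower in all 3 tables, at -0.92 (lactic acidosis), -1.28 (lactosis) and -0.63 (acidosis) by the authors' deposited tables, and passed limma in each. PDHX, a subunit of the complex, was listed higher in lactic acidosis at 0.28 in the authors' deposited table (limma adjusted p = 0.0302). That difference stayed past limma in 8 of 12 alternatives, and that of PDP1 in acidosis in 10 of 12. The subunits PDHA1, PDHB, DLAT and DLD were in none of the tables.

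**Figure D3:**
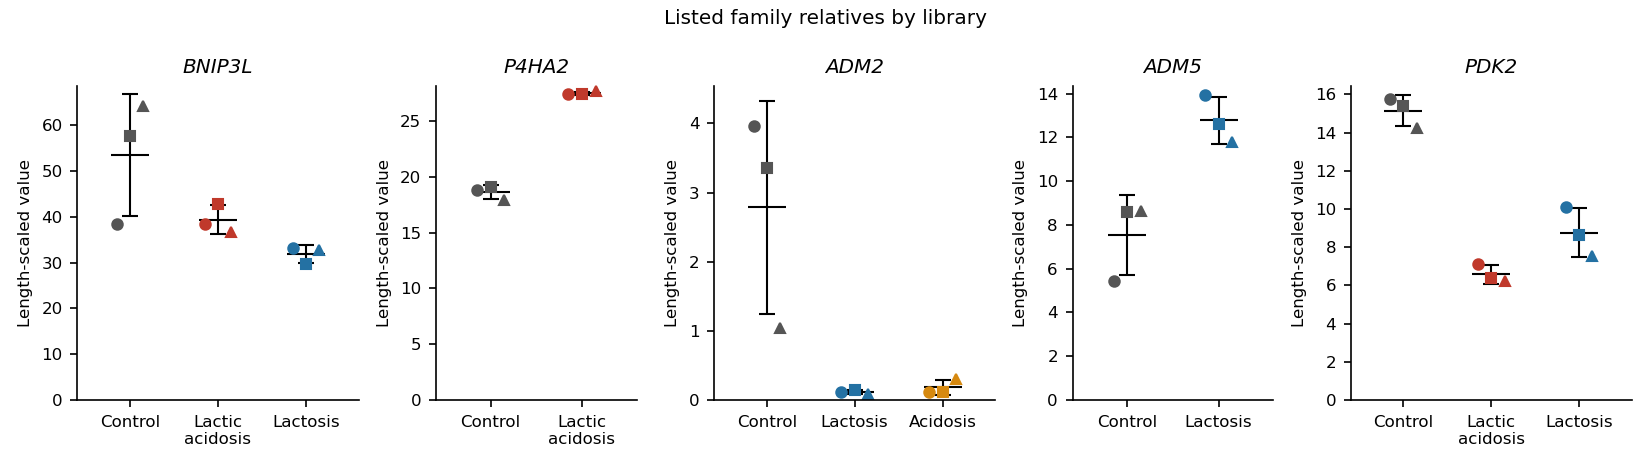
Length-scaled value of 5 listed relatives of the members in every library of the groups whose tables list them (circle, square and triangle for replicates 1, 2 and 3; bars, mean ± SD, n = 3). BNIP3L in lactic acidosis overlaps only control replicate 1, which was deposited on a low scale, P4HA2 and ADM5 lie above control, and ADM2 and PDK2 lie below it.

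Targets of ATF4, which drives the response to amino acid shortage, were read beside the members because DDIT4 belongs to both lists. In each of the 3 tables, 6 of these 12 genes were listed, all lower and all past limma, which 86.3%, 78.5% and 62.2% of all listed genes passed in lactic acidosis, lactosis and acidosis. SESN2, which restrains mTORC1, stood at 37.44, 48.59 and 26.18 in control, 7.74, 9.7 and 8.26 in lactic acidosis, 6.84, 4.77 and 5.55 in lactosis and 8.89, 6.53 and 7.11 in acidosis. The authors' deposited tables put CHAC1, which degrades glutathione, at -2.38, -4.15 and -3.93 and the transcription factor gene ATF3 at -2.01, -2.40 and -1.80, in the same order of groups. In control replicate 3 both SESN2 and ATF3 had their lowest control value, as VEGFA did, while ADM and P4HA1 had their highest there. The other ATF4 targets named, CHAC1 and DDIT4, were instead lowest in control replicate 1, the control on the low scale. CHAC1 stood at 51.56, 78.56 and 54.47 in control. The part of amino acid stress in the values of the members was not tested.

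**Figure D4:**
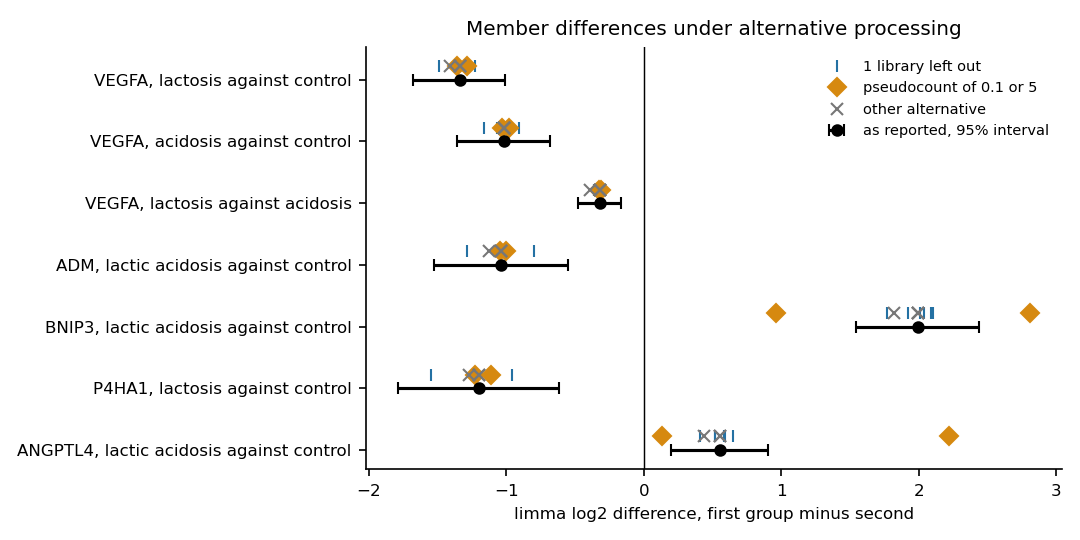
Limma log2 difference of each listed member in each comparison it allows (black, as reported, with its 95% interval) and under the alternatives (ticks, 1 library left out; diamonds, other pseudocounts; crosses, the rest). Every alternative kept its direction, and the pseudocount moved BNIP3 from 0.96 to 2.81 and ANGPTL4 from 0.13 to 2.22.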

How the data were processed

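STAR and hg38 are named in the submitters' processing notes; the counting tool, its use of strand and the test are not given in the sources used here. Per the file headers the tables have the column names of EBSeq, a test of 2 groups. The deposited value of each library is a signal scaled by gene length (TPM and FPKM could not be told apart). Group means, also a signal as deposited, are counts after division by size factors. Each deposited fold is a ratio with control on top, turned over here so that positive log2 values mean higher in treated cells, and the deposited probability of equal expression was under 0.05 for every listed gene. Control values were equal in all tables.

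Limma 3.58.1 (R 4.3.3), with a mean-variance trend, was run on log2(value + 1) without a filter for the 6 libraries of each comparison, adjusted over all genes fitted (Benjamini-Hochberg, 0.05). It was tested on simulated data. Treated groups were compared on genes listed in both tables; no member was listed in both the lactic acidosis table and another. Alternatives were pseudocounts of 0.1 and 5, a mean value of at least 1, the replicate number as a block, rescaling, a probability under 0.01, and leaving out each library.

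Members and lists were chosen with earlier results of these data known. List genes were named by rule, up to 4 per list by the authors' probability; ALDOC, KDM4B, KDM4C, LOX, CA9 and ADM2, and the genes said to be in no table, were named after their values were seen, as was the choice to seek genes like VEGFA over 9 libraries. Of the other targets counted, 1 is not reported here by name or drawn. Genes are placed by GENCODE release 29 on GRCh38, and promoters are from RefSeq. Summaries were made in Python 3.11.15 (pandas 2.3.3).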

Additional observations from a re-analysis of the deposited data

Results flagged for a closer look

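Treated groups were compared here for the members and for PDK2, BNIP3L and ADM2, and limma passed 3 differences among them. VEGFA was lower in lactosis than in acidosis (log2 difference -0.32, limma adjusted p = 0.00438, all 3 lactosis libraries below all 3 acidosis libraries). Of the 1173 genes compared, 28.5% passed limma, and for 13.4% the lactosis libraries lay wholly below. PDK2 was lower in lactic acidosis than in lactosis (-0.36, adjusted p = 0.0405, all 3 libraries below), a difference that missed the threshold under 5 of 12 alternatives (adjusted p from 0.00484 to 0.230). BNIP3L was higher in lactic acidosis than in lactosis (0.30, limma adjusted p = 0.0210, all 3 libraries above), and missed it under 4 of 12 (limma adjusted p from 0.00868 to 0.108). In lactic acidosis against lactosis, 25.9% of the 2344 genes compared passed limma. ADM2 did not differ past the threshold between lactosis and acidosis (-0.09, 95% interval -0.34 to 0.16, limma adjusted p = 0.623).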

How the results depend on the processing

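All 7 differences of members kept their direction and stayed past the limma threshold in each of the 82 alternatives that could be run. The authors' test listed the members from the same libraries, so staying past it against control adds no evidence. After rescaling, 4139 of 4279 listed genes passed in lactic acidosis and 2910 of 3087 in lactosis. P4HA1 and ANGPTL4 could not be tested under a probability below 0.01 and a mean value of at least 1, respectively, which left them out, so that 1 of 2 members was counted in lactosis with the stricter probability. Of 61 differences of other named genes, 21 crossed the threshold in at least 1 alternative and none changed sign. The replicate number as a block changed no member's call. Same-numbered libraries of control and treated groups did not deviate together (correlations of -0.26 to 0.16), so the numbers were not taken as pairs. Lactic acidosis was not compared in this way with lactosis, and replicate 2 of both held high muscle markers. In acidosis, 1071 of the 1721 listed genes passed as reported, 603 with the replicate block and 1673 after rescaling. With 1 library left out, between 1416 and 2640 passed in lactosis, between 423 and 1299 in acidosis and between 189 and 396 in lactosis against acidosis; the lowest counts came without lactosis replicate 1, acidosis replicate 2 and acidosis replicate 2. Rescaling lowered the median difference of all listed genes by 0.09 in lactic acidosis and 0.07 in lactosis. Low counts limit ANGPTL4 and BNIP3.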
